A study of Mus musculus with 54 samples.

Results

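Transplanted mouse haematopoietic cells collected on day 5 were set against haematopoietic stem cells of the steady state, to ask which genes differed between them. The day 5 group held the 336 annotated cells of origin Tx (transplanted) in the 7 libraries that the labels call cells collected on day 5. The iHSC group held the 305 annotated cells of origin Ho (steady state) whose sorting gate was LT_HSC, ESLAM, ESLAMSK, Fraction I or Fraction III (22, 58, 57, 102 and 66 cells), from 12 libraries. The whole deposited annotation covered 2301 cells of 54 libraries, 1031 of them transplanted. All donors were given as C57BL/6 mice aged 8-10 weeks, and no mutant allele or drug was named for either group. The annotation gave the day 5 cells the phenotype GFPP, and neither the population that was injected nor the conditioning of the hosts was given in the sources used here. Libraries L66, L68, L69 and L70 of day 5 were labelled spleen, L72 bone marrow, and L71 and L86 both organs. Of the iHSC libraries, both organs were named for L49, L50, L51, L54, L55 and L73, and bone marrow alone for the other 6. No iHSC library was labelled spleen alone, so organ and transplantation could not be fully told apart. The iHSC cells shared their library with other sorted populations in L14, L15, L49, L50, L51, L54, L55 and L74, while each day 5 library held 1 label. Beside iHSC cells the labels gave B and NK cells for L54, and MK and day 7 cells for L55. Which cells came from the same animal was not given, so p-values measured the spread between libraries.

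The counts of all cells of one group in one library were added up, and that library served as the replicate (n = 7 for day 5, n = 12 for iHSC). The sums held 8 to 72 cells and 1078317 to 19103472 counts on day 5, and 5 to 79 cells and 517741 to 14674872 counts in iHSC. Levels of a gene are given as CPM (counts per 1000000 counts of the library, with TMM factors, mean ± SD over libraries). Changes are log2 differences of day 5 over iHSC with their standard error (SE) from edgeR, and a gene was called when its Benjamini-Hochberg adjusted p over all tested genes was under 0.05. A CPM compares a gene between groups, not one gene with another.

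Long-term haematopoietic stem cells divide rarely in the steady state. They hold back the cell cycle by inhibitors and nutrient-sensing brakes, and keep a low rate of protein synthesis. After transplantation they home to marrow and spleen and are driven into division, and progenitors arise from them that refill the blood lineages. Entry into the cycle runs through the E2F factors, which switch on the genes of DNA replication, and later through the MuvB complexes with B-MYB and FOXM1, which switch on the genes of mitosis. Promoters of mitotic genes are known for CCAAT boxes, the sites of the factor NF-Y, and for the cell cycle homology region (CHR).

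The annotation's own types placed most day 5 cells among multipotent progenitors: 166 cells (49.4%) were tMPP2, 74 tMPP5, 66 tMPP1, 12 tMPP4 and 6 tMPP3, and 5 were tHSC, 5 tGM, 1 tLym and 1 tME. L66, with 8 cells, stood apart, since 62.5% of its cells were tMPP3, 25% tGM and 12.5% tMPP4. Its summed level of 10 tissue macrophage markers was 1345 CPM, against a median of 26.1 CPM over the day 5 libraries, and that of 8 neutrophil markers 18097 CPM. Among the iHSC libraries, L1 and L54 had neutrophil sums of 29162 and 29199 CPM, and L54, L55, L74 and L76 had sums of 5 plasma cell markers between 4315 and 12459 CPM, with a median of 240.3 CPM over all iHSC libraries. The Y-linked gene Ddx3y exceeded 5 CPM in 1 of 7 day 5 libraries (L86) and in 3 of 12 iHSC libraries (L1, L14 and L15), and those libraries had 0 to 3.71 CPM of Xist. The remaining libraries had 22.9 CPM of Xist or more. The 7 long-term stem cell markers summed to 238 to 398 CPM in day 5 libraries (median 266), against 424 to 1582 CPM in iHSC libraries (median 986), and all 7 were detected in both groups. The adult globin genes Hba-a1, Hba-a2, Hbb-bs and Hbb-bt and the B cell factor gene Pax5 had 0 counts in both groups.

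**Figure D1:**
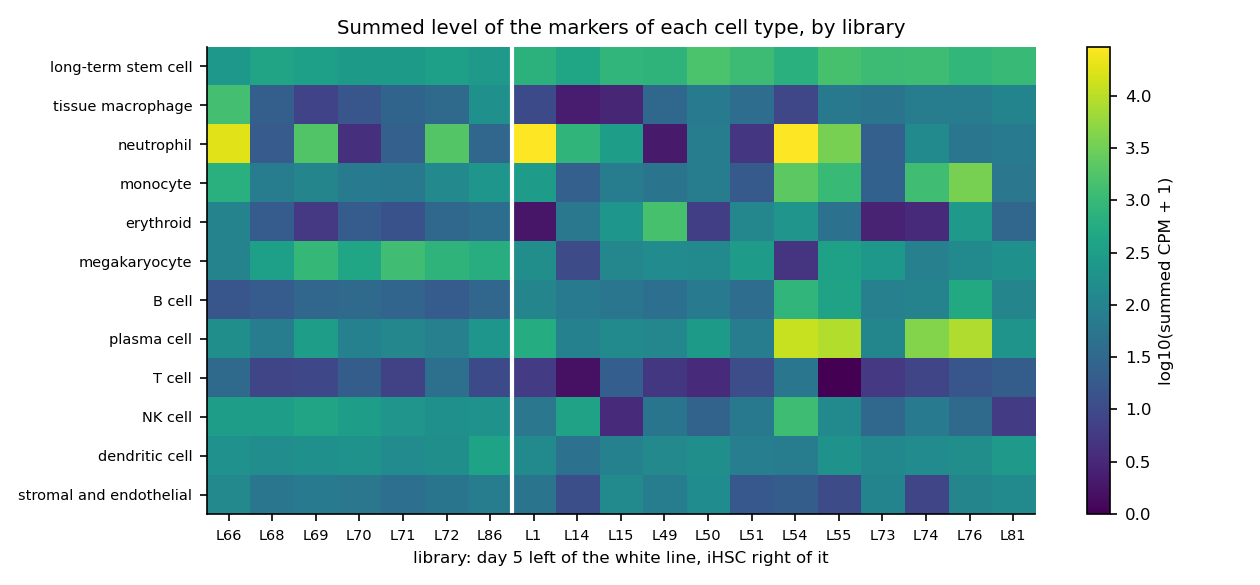
Summed level (log10 of CPM + 1, colour) of the markers of each cell type (rows) in each library (columns), with day 5 left of the white line and iHSC right of it. L66 stands out among day 5 libraries for macrophage (1345 CPM) and neutrophil markers, and L54, L55, L74 and L76 among iHSC libraries for plasma cell markers (4315 to 12459 CPM).

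Of 13353 genes tested, 1011 (7.57%) were called between the groups: 572 (4.28%) were higher and 439 (3.29%) were lower in day 5 cells. The median log2 change of all genes was -0.12, and every change of a list below is to be read against that value. In 101 genes (0.756%) every day 5 library lay above every iHSC library, and in 39 (0.292%) every one lay below. The count was 874 without L66 (479 higher, 395 lower), 988 without the iHSC sums of L54, L55, L74 and L76, 903 without all 5 of these, and 897 without the 4 libraries with Y-linked counts. The split between higher and lower differed between scalings and tools. The share of calls that were higher was 56.6% in edgeR with TMM, 44.7% with RLE factors, 34.7% in DESeq2, 69.9% in limma voom and 85.7% in limma on mean log values, and the median change of all genes was -0.25 with RLE factors, 0.23 in voom and 0.02 on mean log values. With the spleen libraries of day 5 alone 274 genes were called, with the marrow-containing ones 206, and with iHSC libraries of both organs alone 884. Leaving out L68, L71 or L72 moved the number of lower genes to 291, 267 and 283.

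Genes of mitosis rose as a group: 31 of 37 tested G2/M members were called higher and 0 lower, with a median log2 change of 2.66. In the spleen libraries alone 26 were called (median 2.34), in the marrow-containing ones 30 (median 2.96), and 32 without L66 and the 4 iHSC libraries high in plasma cell genes. Bub1b, a spindle checkpoint kinase gene (chr2:118598202-118641592 of GRCm38), stood at 24.8 to 84.2 CPM (median 41.1) in day 5 libraries, against 1.49 to 6.81 CPM (median 2.77) in iHSC libraries. Every day 5 library thus lay above every iHSC library, and the log2 change was 3.83 ± 0.44 (SE, adjusted p = 1.09e-06). Cenpe, a kinetochore motor gene (chr3:135212563-135273540), stood at 56.2 to 99.7 CPM (median 79.4) in day 5 libraries, against 0 to 17.8 CPM (median 4.29) in iHSC libraries, and the groups did not overlap (log2 change 3.77 ± 0.48, adjusted p = 7.04e-06). Tpx2, which nucleates spindle microtubules (chr2:152847964-152895321), averaged 84.3 ± 38 CPM in day 5 cells, against 7.51 ± 7.45 CPM in iHSC (log2 change 3.48 ± 0.47, adjusted p = 1.05e-05), also without overlap. Hmmr, a spindle-associated hyaluronan receptor gene (chr11:40701388-40733464), averaged 50.1 ± 22.8 CPM in day 5 cells, against 3.88 ± 3.66 CPM in iHSC (log2 change 3.60 ± 0.52, adjusted p = 2.57e-05). Its lowest day 5 library was L66 at 6.95 CPM, inside the iHSC range, which reached 12.7 CPM. Aspm, a spindle pole gene, rose by 4.72 on the log2 scale, Birc5, which encodes survivin of the chromosomal passenger complex, by 2.75, and Sgol1, which encodes a protector of centromere cohesion, by 3.37. Mki67, the proliferation antigen gene, ranged from 137 to 303 CPM (median 233) in day 5 libraries, against 1.21 to 114 CPM (median 30.6) in iHSC libraries (log2 change 2.43 ± 0.48, adjusted p = 0.000924). Cenpa, the centromeric histone gene, at 169.6 ± 59.4 CPM on day 5 and 77.8 ± 67.6 CPM in iHSC (adjusted p = 0.0923), and Pttg1, which encodes securin, at 75.7 ± 19.2 CPM on day 5 and 115 ± 51.6 CPM in iHSC (log2 change -0.60, adjusted p = 0.292), were not called.

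The replication genes of the G1/S list followed, with 27 of 37 called higher, 0 lower and a median log2 change of 1.69. The number was 14 in the spleen libraries, 11 in the marrow-containing ones, 19 without the iHSC sums of L54, L55, L74 and L76 and 25 without L66, with 0 lower in each. Lig1, the replicative DNA ligase gene, averaged 351 ± 65.8 CPM in day 5 cells, against 77 ± 42.4 CPM in iHSC (log2 change 2.18 ± 0.32, adjusted p = 3.41e-05), with no overlap between groups. Mcm2, a subunit of the replicative helicase (chr6:88883474-88898780), ranged from 147 to 242 CPM (median 197) in day 5 libraries, against 8.82 to 90.3 CPM (median 47) in iHSC libraries (log2 change 2.07 ± 0.34, adjusted p = 0.000113). Its day 5 libraries all lay above its iHSC libraries, as did those of Mcm3, another helicase subunit gene, at 225 ± 37.2 CPM on day 5 and 77.5 ± 27.7 CPM in iHSC (log2 change 1.54). Tk1, the thymidine kinase gene, averaged 192 ± 55.6 CPM in day 5 cells, against 39.1 ± 35.2 CPM in iHSC (log2 change 2.29 ± 0.40, adjusted p = 0.000306), and L66 had its lowest day 5 value at 76.4 CPM. The histone chaperone gene Nasp (chr4:116601052-116628676) rose by 2.67, the histone variant gene H2afz by 1.32 and the replication-dependent histone gene Hist1h2ag by 4.63; Hist1h2ag belongs to a family of near-identical copies, so its own share of these reads is uncertain. Slbp, the histone mRNA binding protein gene, at 206 ± 48.5 CPM on day 5 and 139 ± 70.8 CPM in iHSC (adjusted p = 0.207), and Prim1, a primase gene (log2 change 1.30, adjusted p = 0.0508), were not called.

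**Figure D2:**
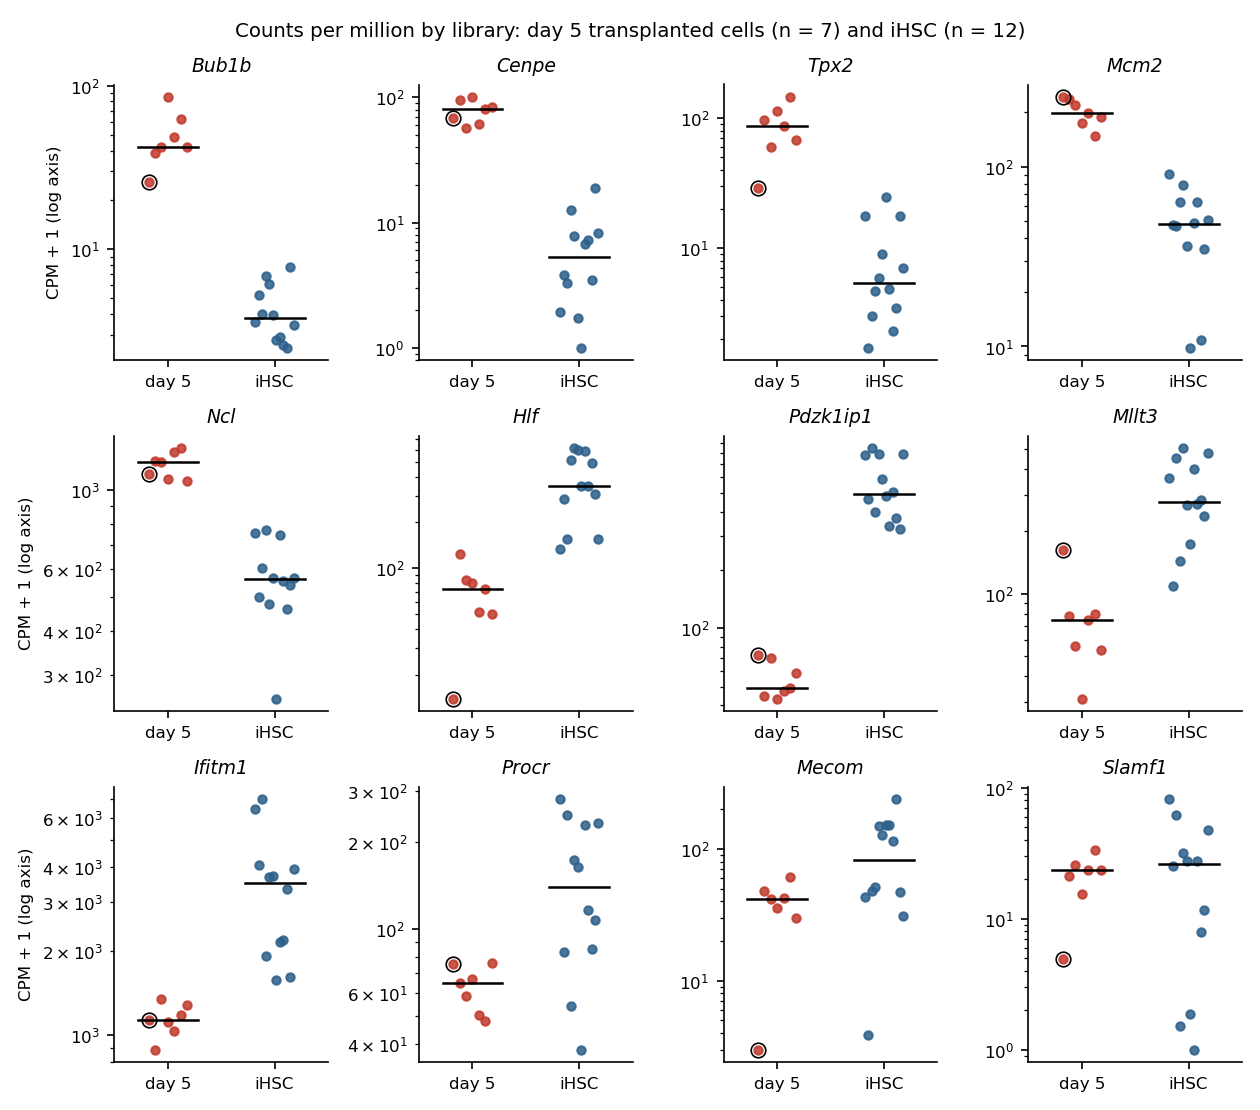
CPM + 1 (log axis) of 12 genes in each library, with the 7 day 5 libraries left and the 12 iHSC libraries right; bars are medians and the ringed point is day 5 library L66. The day 5 values of Bub1b, Cenpe, Tpx2, Mcm2 and Ncl lie above all iHSC values and those of Hlf, Pdzk1ip1 and Ifitm1 below all of them, while Procr, Mecom and Slamf1 overlap.

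Cell cycle genes are known to be switched on through short motifs just before their start, so the stretches before the start of 7 called genes are printed here to show those motifs beside the changes. RefSeq promoters of GRCm38.p6 were matched for 147 of the 197 genes that the naming rule gave. The 250 bases before the start were searched on both strands for CCAAT (NF-Y box), TTTGAA (CHR element) and TTTCGCGC or TTTGGCGC (E2F site, in 2 forms that can overlap each other or a CCAAT on the other strand). A CCAAT was present in 24 of 30 G2/M promoters and 20 of 31 G1/S promoters, against 36.4% of the 10157 promoters of all genes tested. TTTGAA was present in 30.0% of G2/M and 12.9% of G1/S promoters, against 10.8% of all. An E2F form was present in 3.33% of G2/M and 16.1% of G1/S promoters, against 1.29% of all. Of 24 HSC identity promoters 29.2% held a CCAAT, and of 28 ribosome biogenesis promoters 25%. Cdk1, Ccnb2, Cdc20 and Mcm6 were chosen for print after their motifs and values were seen. Sequences run 5′ to 3′ on the strand of the gene and end at the base before its start; capitals mark the motifs, with ATTGG standing for a CCAAT on the other strand.
Cdk1, chr10:69352913-69353132, minus strand: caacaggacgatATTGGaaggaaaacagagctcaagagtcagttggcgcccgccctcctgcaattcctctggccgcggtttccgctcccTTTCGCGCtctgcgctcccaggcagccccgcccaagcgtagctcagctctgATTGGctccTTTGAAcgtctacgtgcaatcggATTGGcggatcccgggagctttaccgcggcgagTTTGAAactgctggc
Ccnb2, chr9:70421555-70421734, minus strand: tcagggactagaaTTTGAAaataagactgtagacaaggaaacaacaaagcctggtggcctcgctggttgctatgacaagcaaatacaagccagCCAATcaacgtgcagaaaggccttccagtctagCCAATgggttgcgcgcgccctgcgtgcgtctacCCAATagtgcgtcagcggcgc
Cdc20, chr4:118437344-118437423, minus strand: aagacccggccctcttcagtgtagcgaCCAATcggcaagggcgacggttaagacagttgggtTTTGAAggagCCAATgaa
Cenpe, chr3:135212503-135212562, plus strand: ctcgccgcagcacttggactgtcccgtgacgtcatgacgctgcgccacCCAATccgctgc
Mcm2, chr6:88898781-88898960, minus strand: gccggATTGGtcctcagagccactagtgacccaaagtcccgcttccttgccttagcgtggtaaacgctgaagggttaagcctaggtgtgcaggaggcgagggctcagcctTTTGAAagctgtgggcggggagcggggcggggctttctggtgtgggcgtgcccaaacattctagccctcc
Mcm3, chr1:20820313-20820432, minus strand: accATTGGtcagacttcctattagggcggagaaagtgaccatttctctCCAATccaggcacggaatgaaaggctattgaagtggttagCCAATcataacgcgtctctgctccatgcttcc
Mcm6, chr1:128359706-128359825, minus strand: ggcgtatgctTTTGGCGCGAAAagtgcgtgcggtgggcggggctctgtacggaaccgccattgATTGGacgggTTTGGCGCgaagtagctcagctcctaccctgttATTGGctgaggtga
Cdk1, the kinase gene that drives mitosis, held 3 CCAAT, 2 TTTGAA and 1 E2F form and changed by 1.88 on the log2 scale. Ccnb2, its cyclin partner, held 3 CCAAT and 1 TTTGAA (log2 change 2.99), and Cdc20, the activator of the anaphase-promoting complex, 2 CCAAT and 1 TTTGAA (log2 change 2.79). Mcm6, a helicase subunit gene, held 2 CCAAT and 3 E2F matches, of which the first pair overlap on opposite strands (log2 change 1.32), and Mcm3 held 3 CCAAT. A match describes letters and does not show binding in these cells.

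At equal depth more genes were found per day 5 cell. Thinned to 20000 counts, cells had a library median of 3693 ± 126 genes on day 5 (n = 7, 3538.5 to 3856.0) and 2578 ± 294 genes in iHSC (n = 12, 1998.5 to 2957.0), a difference of 1115 genes without overlap between the groups (two-sided exact permutation test over 50388 regroupings of libraries, p = 1.9846e-05, the smallest this design can give). The unthinned medians were 6457 and 4637 genes. In the same thinned cells Mki67 was present in 73.6% ± 10.0 of cells per day 5 library and 23.3% ± 13.7 per iHSC library, and Cenpe in 40.2% ± 5.13 and 5.63% ± 9.49. A share is one of cells with a count, not of cells that express the gene.

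**Figure D3:**
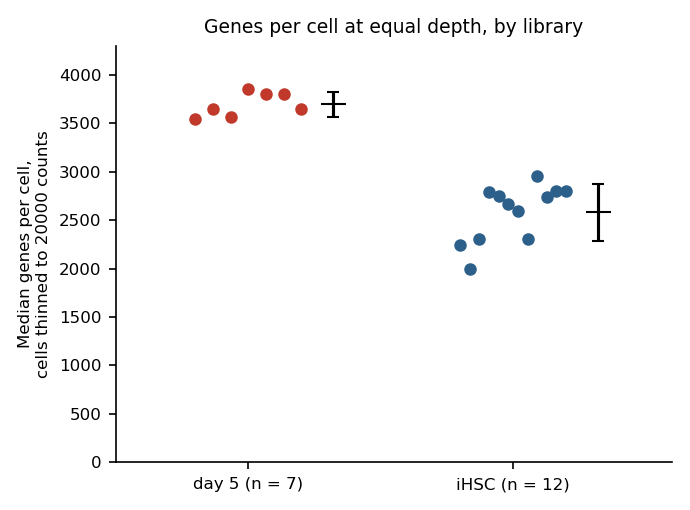
Median number of genes per cell in each library after every cell was thinned to 20000 counts, with day 5 left and iHSC right; the bar beside each group is the mean with its SD. The 7 day 5 libraries lie at 3538.5 genes or more and the 12 iHSC libraries at 2957.0 or less.

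Some genes of growth were also higher, in numbers that varied with the processing. Of 33 ribosome biogenesis genes 11 were called higher and 0 lower (median log2 change 0.84), of 25 nucleotide and one-carbon synthesis genes 10 were higher and 1 lower (median 0.97), and of 24 cytosolic chaperones 9 were higher and 0 lower (median 0.70). Over the 35 alternatives the numbers called higher ranged from 2 to 19 for ribosome biogenesis, 1 to 17 for nucleotide synthesis and 1 to 18 for chaperones, with the fewest in the organ splits. Without the iHSC sums of L54, L55, L74 and L76 they were 8, 4 and 8, and without L66 they were 8, 6 and 10. Ncl, which encodes the nucleolar protein nucleolin (chr1:86344719-86359455), ranged from 1059 to 1314 CPM (median 1199) in day 5 libraries, against 256 to 772 CPM (median 558) in iHSC libraries (log2 change 1.06 ± 0.20, adjusted p = 0.000638), and no day 5 library fell inside the iHSC range. Nolc1, a nucleolar phosphoprotein gene, rose by 2.13, the rRNA methyltransferase gene Fbl by 1.35 and the nucleophosmin gene Npm1 by 0.86. The cytosolic ribosomal protein genes did not share this direction: 0 of 43 were called higher and 10 lower (median -0.19), among them Rps7, Rps19 and Rpl13 with changes of -0.67, -0.72 and -0.63. Ribosomal protein genes have many processed copies in the genome, so their counts are uncertain.

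In nucleotide synthesis Cad, the gene of the first enzymes of pyrimidine synthesis, averaged 77.3 ± 18.5 CPM in day 5 cells, against 21.4 ± 11.6 CPM in iHSC (log2 change 1.84 ± 0.39, adjusted p = 0.00227). Mthfd2, a mitochondrial folate enzyme gene, averaged 50.5 ± 7.81 CPM on day 5 and 11 ± 11.1 CPM in iHSC (log2 change 2.23), and neither gene's groups overlapped. Psat1, of serine synthesis, rose by 1.94. Shmt2, which passes serine carbon to folate, rose by 1.28, with L66 highest at 360.3 CPM and a change of 1.04 (adjusted p = 0.0766) without L66. Pnp, which degrades purine nucleosides, went the other way at 84 ± 25.1 CPM in day 5 cells, against 286 ± 133 CPM in iHSC (log2 change -1.76 ± 0.31, adjusted p = 0.000264).

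Of 44 nuclear genes of oxidative phosphorylation 10 were called higher and 0 lower (median 0.40). The number higher was 2 in the spleen and 4 in the marrow-containing libraries, 5 without L66 and the iHSC sums of L54, L55, L74 and L76, and 30 in limma voom. Cycs, the cytochrome c gene, ranged from 687 to 1008 CPM (median 897) in day 5 libraries, against 147 to 532 CPM (median 322) in iHSC libraries (log2 change 1.35 ± 0.23, adjusted p = 0.000238), without overlap. The cytochrome oxidase subunit genes Cox7b, Cox5a and Cox7a2 rose by 0.93, 1.16 and 0.73, while Cox4i1 stood at 1377 ± 136 CPM on day 5 and 1376 ± 435 CPM in iHSC (adjusted p = 1). Glycolysis genes were split, with 2 of 21 higher, 2 lower and a median of 0.08, which was -0.04 with RLE factors. Pgam1, phosphoglycerate mutase, rose by 0.93 and Ldhb, the lactate dehydrogenase form of oxidative tissues, fell to 44.7 ± 17.2 CPM in day 5 cells, against 244 ± 122 CPM in iHSC (log2 change -2.44 ± 0.54, adjusted p = 0.00336). Of 31 proteasome subunits 3 were higher and 0 lower (median 0.41; 1 to 21 higher over the alternatives), led by Psmd2 with a change of 1.31.

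Among chaperones, Hsp90aa1, the inducible cytosolic HSP90 gene, ranged from 2029.8 to 2932 CPM (median 2431) in day 5 libraries, against 457 to 1847 CPM (median 1007) in iHSC libraries (log2 change 1.23 ± 0.23, adjusted p = 0.000458), and Hsp90ab1, its constitutive partner, changed by 0.77; the groups did not overlap in either. Hspa1a and Hspa1b, the stress-induced HSP70 genes, changed by 4.08 and 5.20, but they are near-identical copies and the split of reads between them is uncertain. Hspa1a was at 66.5, 131, 159 and 143 CPM in the spleen libraries L66, L68, L69 and L70, at 9.58 CPM in marrow library L72, and at 49.2 and 5.98 CPM in L71 and L86. Unfolded protein response genes did not follow: 0 of 20 were higher and 2 lower (median -0.58, 0.02 in voom and 0.15 on mean log values), namely Dnajb9, an ER cochaperone gene (log2 change -2.01), and Xbp1, an ER stress factor that plasma cells also need (log2 change -1.68). Without the iHSC sums of L54, L55, L74 and L76 the change of Xbp1 was -0.23 (adjusted p = 0.756), and the list's median was 0.38.

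Genes of stem cell identity lay lower on day 5. Of 35 tested members 8 were called lower and 0 higher, 34 of the 35 changes were negative, and the median was -1.28. In the spleen libraries 3 were called lower (median -1.31), in the marrow-containing ones 2 (median -1.29), and without L66 7 (median -1.16). Pdzk1ip1, a membrane protein gene known as a marker of quiescent stem cells (chr4:115088708-115093894), ranged from 42.3 to 71.5 CPM (median 48.3) in day 5 libraries, against 324 to 849 CPM (median 494) in iHSC libraries. The groups lay far apart (log2 change -3.36 ± 0.55, adjusted p = 9.97e-05), and the gene was present in 40.2% ± 8.92 of thinned cells per day 5 library and 83.6% ± 11.4 per iHSC library. Hlf, a PAR bZIP transcription factor gene that keeps stem cells (chr11:90336535-90390917), ranged from 12.9 to 123 CPM (median 71.6) in day 5 libraries, against 133 to 614 CPM (median 345) in iHSC libraries (log2 change -2.48 ± 0.53, adjusted p = 0.00249), and no value of one group lay inside the other. It was still present in 51.3% ± 19.7 of thinned cells per day 5 library, against 76.9% ± 17.6 per iHSC library. Ifitm1, an interferon-induced membrane protein gene that is also high in stem cells (chr7:140967429-140969827), averaged 1139.6 ± 155 CPM in day 5 cells, against 3465 ± 1772 CPM in iHSC (log2 change -1.60 ± 0.25, adjusted p = 7.12e-05), again without overlap. Mllt3, a reader of histone acylation that maintains stem cells (chr4:87769925-88033407), averaged 75.3 ± 41.4 CPM in day 5 cells, against 305 ± 132 CPM in iHSC (log2 change -2.03 ± 0.49, adjusted p = 0.00693); its highest day 5 value, 161 CPM, was in L66.

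The surface genes Procr, Slamf1 and Ly6a and the stem cell genes Mecom and Fgd5 were not called in the edgeR fit of 5 groups. The surface gene Kit was called lower in that fit and is given further below. The iHSC cells were defined by sorting gates, while the day 5 cells carried the phenotype GFPP. A part of this difference in sorting in the levels of surface genes was not tested. Procr, the gene of EPCR, ranged from 46.9 to 74.8 CPM (median 63.9) in day 5 libraries, against 37.1 to 279.5 CPM (median 139) in iHSC libraries (log2 change -1.28 ± 0.57, adjusted p = 0.173). Procr was called lower with both groups fitted alone (log2 change -1.31, adjusted p = 0.0283) and in limma voom (-1.20, 0.0292), 2 of 35 alternatives. It was present in 46.2% ± 13.7 of thinned cells per day 5 library and 50.9% ± 17.4 per iHSC library. Slamf1, the gene of CD150, averaged 20.1 ± 8.94 CPM in day 5 cells, against 26.2 ± 25.6 CPM in iHSC (log2 change -0.39 ± 0.72, adjusted p = 0.800), with 18.4% ± 8.90 of cells and 15.3% ± 13.7 of cells. Mecom, which encodes EVI1, changed by -1.38 ± 0.63 (adjusted p = 0.187) and was at 1.99 CPM in L66, against 28.7 CPM or more in the other day 5 libraries. Fgd5, a marker gene of long-term stem cells, changed by -1.17 ± 0.99 (adjusted p = 0.521). Ly6a, the gene of Sca-1, averaged 633 ± 477 CPM in day 5 cells, against 745 ± 546 CPM in iHSC (log2 change -0.23, adjusted p = 0.850), with L86 highest at 1669 CPM. In bulk sums of this kind, fewer cells with a gene and less RNA of it per cell cannot be told apart without the shares of cells.

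Brakes on growth also lay lower, with 5 of 27 members called lower, 1 higher and a median of -1.05. Over the alternatives 2 to 7 were called lower. Tsc22d3, a glucocorticoid- and FOXO-induced gene, averaged 63.1 ± 36.0 CPM in day 5 cells, against 426 ± 231 CPM in iHSC (log2 change -2.76 ± 0.42, adjusted p = 4.65e-05). Txnip, which limits glucose uptake and binds thioredoxin, ranged from 88.3 to 278 CPM (median 219.7) in day 5 libraries, against 257 to 1462 CPM (median 715) in iHSC libraries (log2 change -1.97 ± 0.35, adjusted p = 0.000347). Nfix, a transcription factor gene of stem cell survival, changed by -1.05, and the one brake called higher was Rbl1, the p107 pocket protein gene that is itself an E2F target (log2 change 1.56). Rbl1 lost its call in 12 of 35 alternatives, among them RLE factors (adjusted p = 0.0523) and the fit without the libraries with Y-linked counts (adjusted p = 0.100). The long noncoding RNA gene Malat1 (chr19:5795690-5802672) had the smallest p among the lower genes. It ranged from 2798 to 4682 CPM (median 3332) in day 5 libraries, against 8232 to 16216 CPM (median 9763) in iHSC libraries (log2 change -1.58 ± 0.21, adjusted p = 9.85e-06). The ferritin genes Ftl1 and Fth1, of iron storage, changed by -1.21 and -0.77, and the thioredoxin gene Txn1 by 0.81. B2m, the MHC class I light chain gene, changed by -0.95 and was the only one of 35 interferon response genes called; 0 were called higher and the median was 0.22. The remaining lower genes with the smallest p were Tcp11l2, Rabac1, which encodes a Golgi prenylated Rab acceptor, Akap8l, Rnf167, a ubiquitin ligase gene, with changes of -3.81, -1.49, -2.61 and -2.15, all without overlap between the groups.

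**Figure D4:**
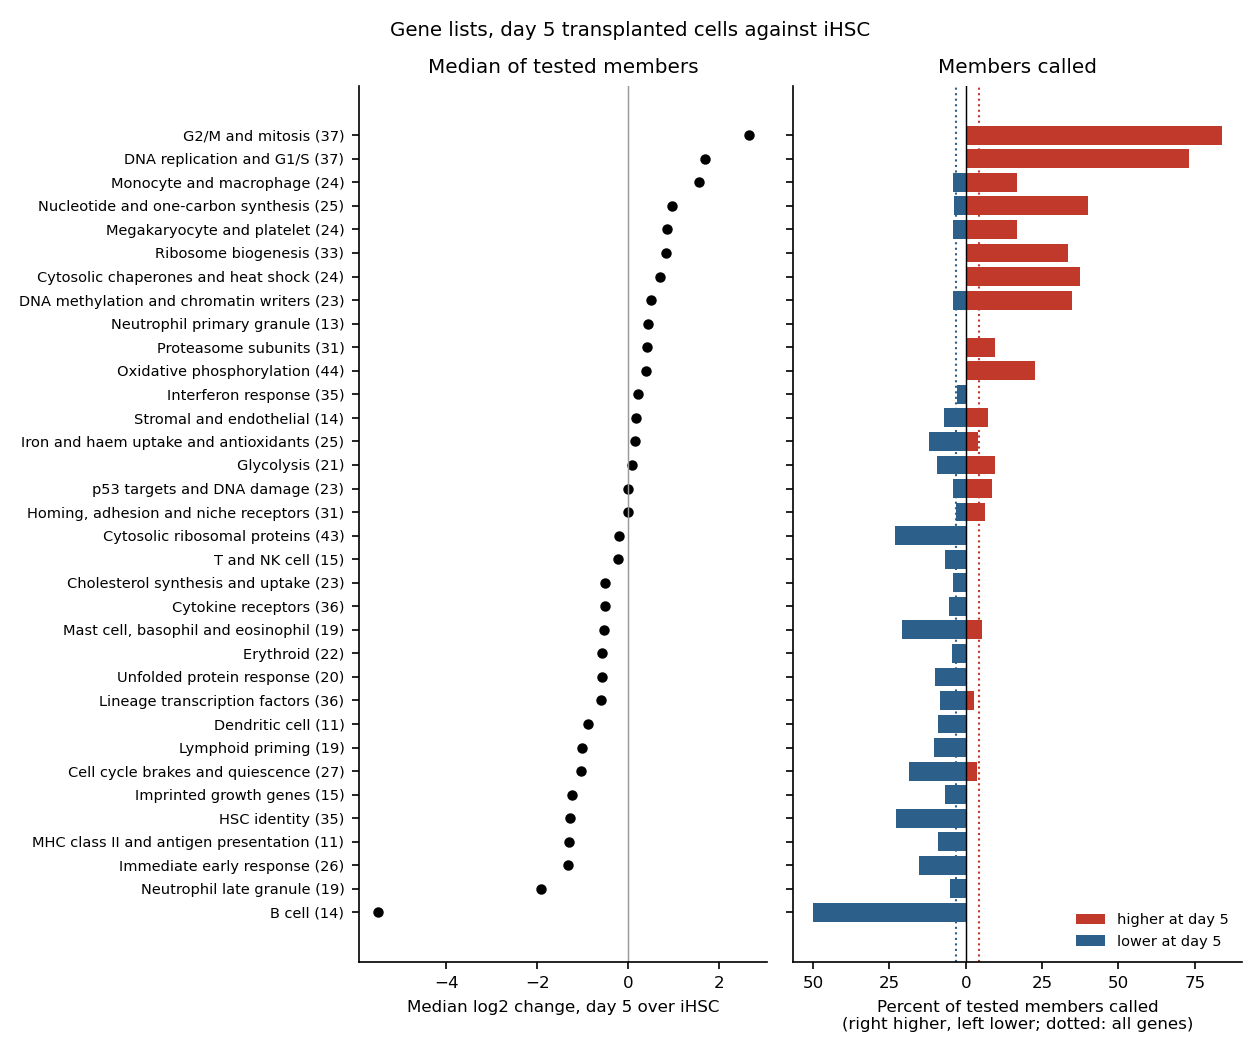
Left, median log2 change of day 5 over iHSC of the tested members of each gene list (their number in brackets); right, percent of them called higher (red) and lower (blue) on day 5, with dotted lines at the shares over all genes (4.28% and 3.29%). Mitosis (31 of 37) and replication (27 of 37) genes have the highest percent of members called higher, and B cell genes (7 of 14) the highest percent called lower.

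The immediate early genes, known to respond to stimuli within minutes, lay lower, with 4 of 26 called, 0 higher and a median of -1.33. Over the alternatives 0 to 10 were called lower. Fos, an AP-1 subunit gene (chr12:85473890-85477274), averaged 451 ± 312 CPM in day 5 cells, against 2267 ± 1179.6 CPM in iHSC (log2 change -2.33 ± 0.56, adjusted p = 0.00672). It was at 339, 789, 815 and 669.5 CPM in the spleen libraries, at 64.1 CPM in L72, and at 373 and 105 CPM in L71 and L86. L71, labelled both organs, lay above spleen library L66, and L72, labelled bone marrow alone, was the lowest. Whether organ had a part in these values was not tested. Egr1, a zinc finger factor gene, changed by -2.09, Ier2 by -1.49 and the AP-1 partner Jund by -1.95. Jund was not called without L66 (adjusted p = 0.0523) or without the 4 iHSC libraries high in plasma cell genes (adjusted p = 0.102). The list's median was -0.83 in the spleen libraries and -2.54 in those that held marrow.

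**Figure D5:**
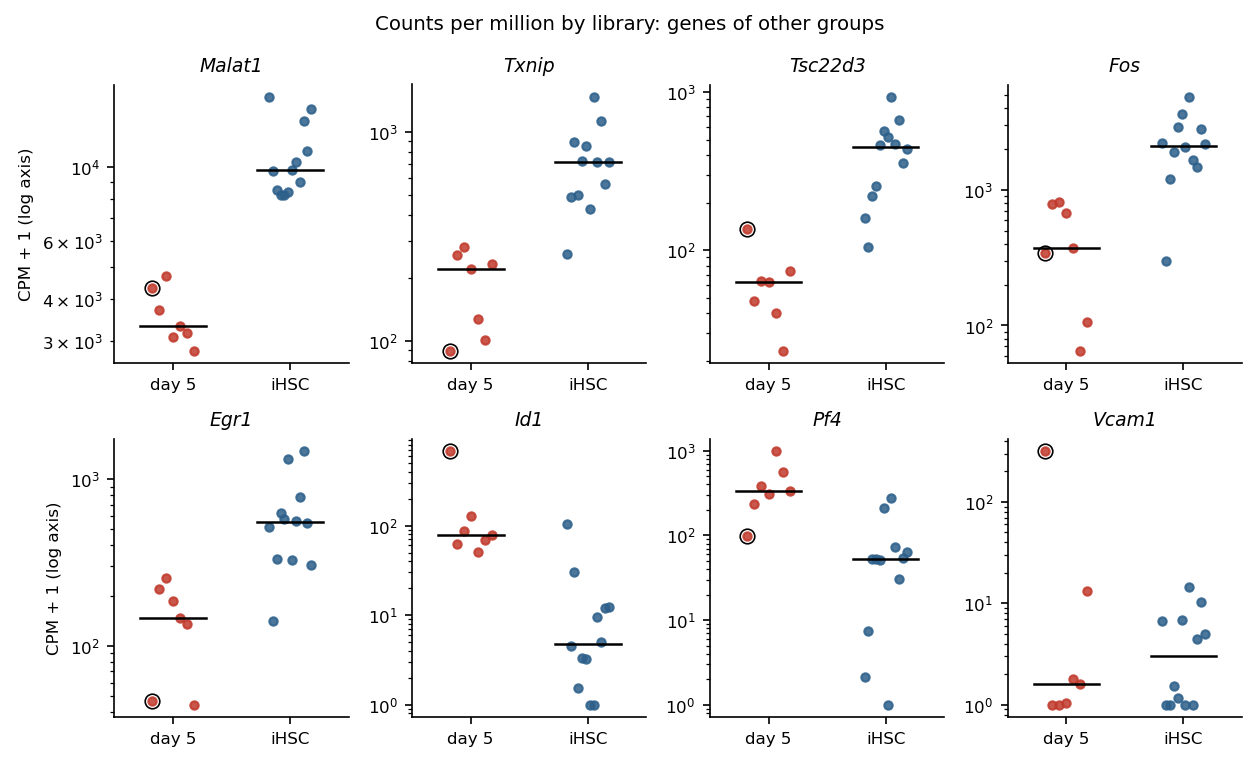
CPM + 1 (log axis) of 8 genes in each library, with day 5 left and iHSC right; bars are medians and the ringed point is L66. Malat1 lies below all iHSC libraries on day 5, Fos and Egr1 spread widely within day 5, and the high mean of Vcam1 rests on L66 at 316 CPM.

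Of 24 megakaryocyte and platelet genes 4 were called higher and 1 lower, with a median of 0.85, which DESeq2 put at 0.01. Over the alternatives 0 to 6 were called higher. Selp, the P-selectin gene (chr1:164115264-164150026), ranged from 41.0 to 94.3 CPM (median 70.2) in day 5 libraries, against 0 to 22.6 CPM (median 11.6) in iHSC libraries. No day 5 library lay inside the iHSC range (log2 change 2.59 ± 0.56, adjusted p = 0.00265), and the gene was present in 53.5% ± 8.96 of thinned cells per day 5 library and 13% ± 10.5 per iHSC library. Pf4, the platelet factor 4 gene, averaged 416 ± 289 CPM in day 5 cells, against 71.8 ± 83.7 CPM in iHSC (log2 change 2.56 ± 0.76, adjusted p = 0.0298), and was not called without the libraries with Y-linked counts (adjusted p = 0.0807). The platelet receptor genes Gp1ba and Gp5 changed by 4.04 and 2.69; Gp1ba was highest in L66 at 57.6 CPM and not called without it (adjusted p = 0.146), and Gp5 was not called with RLE factors (adjusted p = 0.0692) or without the 4 plasma-gene libraries (adjusted p = 0.0772). Of 35 alternatives, Gp5 lost its call in 25, Gp1ba in 9, Pf4 in 8 and Selp in 1. The 6 megakaryocyte markers summed to 98.3 to 1250 CPM in day 5 libraries (median 596), against 3.92 to 352 CPM in iHSC libraries (median 141).

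Of the erythroid genes 0 of 22 were called higher and 1 lower, Car2, a carbonic anhydrase gene (log2 change -1.26; adjusted p = 0.0533 without L66). Of the primary granule genes of neutrophils 0 of 13 were called in either direction, and of the late granule genes 1 of 19 was called lower, Lyz2, a lysozyme gene whose near-identical copy Lyz1 was also lower (log2 changes -2.54 and -2.80), so that their shares of reads are uncertain. Lyz2 lost its call in 13 of 35 alternatives, among them the fit without L66 (adjusted p = 0.0550). Mpo, the myeloperoxidase gene, was at 2043 CPM in L66 and 0 to 135 CPM in the other day 5 libraries, with a log2 change of 2.10 (adjusted p = 0.347), and of -1.41 without L66. Monocyte and macrophage genes had 4 of 24 called higher and 1 lower, with a median of 1.56 that was -0.51 without L66. The higher ones rested on L66: C1qc was at 196 CPM there, and the adjusted p without it was 0.265 for the complement gene C1qc, 0.224 for the endotoxin coreceptor gene Cd14, 0.671 for the macrophage gene Cd5l and 0.844 for the adhesion gene Vcam1, whose change was then -0.53 in place of 3.80.

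B cell genes lay lower, in a list that itself held plasma cell genes such as Tnfrsf17, Mzb1 and Jchain. Of the T and NK cell genes only 1 was called. Of 14 B cell genes 7 were called lower and 0 higher, with a median of -5.52, which was -1.69 without L54, L55, L74 and L76; the number called lower ranged from 2 to 9 over the alternatives. Tnfrsf17, the BCMA receptor gene of plasma cells, averaged 0.0574 ± 0.125 CPM in day 5 cells, against 40.9 ± 60.3 CPM in iHSC (adjusted p = 0.00106, and 0.147 without those 4 libraries), and Mzb1, an ER protein gene of plasma cells, 1.52 ± 3.99 CPM in day 5 cells, against 314 ± 639.7 CPM in iHSC (adjusted p = 0.00596 and 0.403). Jchain, the immunoglobulin joining chain gene, was at 10044, 7877, 3549 and 5396 CPM in these iHSC libraries, was not called (adjusted p = 0.0545), and was present in 0 to 25% of thinned cells per day 5 library and 0 to 100% per iHSC library. By the labels L54 also held B and NK cells, L55 MK and day 7 cells and L74 cells labelled iMPP7, while L76 held iHSC cells alone. L54 also had the highest sums of B cell and NK cell markers among the iHSC libraries. The part of such other cells or their RNA in the result was not tested beyond leaving the libraries out. Cd79b, a B cell receptor chain gene, kept its call without them (log2 change -2.46, and -1.69 without them, adjusted p = 0.0154). Cd74, the MHC class II invariant chain gene and the only one of 11 MHC class II genes called, changed by -2.57, and by -0.56 (adjusted p = 0.679) without them. Of 19 lymphoid priming genes 2 were called, both lower and without overlap: Ltb, the lymphotoxin beta gene, ranged from 0.993 to 25 CPM (median 4.54) in day 5 libraries, against 40 to 560.0 CPM (median 70.7) in iHSC libraries (log2 change -3.83 ± 0.92, adjusted p = 0.00643), and Lsp1, a leukocyte actin-binding protein gene, averaged 91.2 ± 17.6 CPM in day 5 cells, against 311 ± 121 CPM in iHSC (log2 change -1.77 ± 0.46, adjusted p = 0.0125). Of 15 T and NK cell genes 1 was called lower and 0 higher, 6 changes were positive and the median was -0.22, which was 3.24 without the iHSC sums of L54, L55, L74 and L76. The 6 NK cell markers summed to 172 to 404 CPM in day 5 libraries (median 306), against 2.54 to 1179 CPM in iHSC libraries (median 56.2), and the T cell markers had medians of 9.07 CPM in day 5 and 6.31 CPM in iHSC libraries.

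Of 36 lineage transcription factor genes 1 was called higher and 3 lower, and of 23 DNA methylation and chromatin genes 8 higher and 1 lower. Id1, an inhibitor of bHLH factors (chr2:152736251-152737410), was the lineage factor gene called higher. It was at 675 CPM in L66 and 49.4 to 126 CPM in the other 6 day 5 libraries, against a median of 3.76 and a highest value of 102 CPM in iHSC (log2 change 3.41 ± 0.69, adjusted p = 0.00118). Without L66 the change was 2.36 (adjusted p = 0.0257), and the gene was present in 36.4% ± 6.56 of thinned cells per day 5 library and 6.06% ± 8.42 per iHSC library. Lmo2, a cofactor of stem cell factors, changed by -1.15, and Runx1, a master factor of blood formation, by -1.35; Runx1 was not called without L66 (adjusted p = 0.0543). Kit, the stem cell factor receptor gene, averaged 101 ± 28.1 CPM in day 5 cells, against 254 ± 88.9 CPM in iHSC (log2 change -1.33 ± 0.39, adjusted p = 0.0272), and was 1 of 2 of 36 cytokine receptor genes called, both lower. Its adjusted p was 0.0671 without the 4 plasma-gene libraries. The chromatin list had a median of 0.50, with 2 to 13 members called higher over the alternatives. Ezh2, the Polycomb methyltransferase gene, averaged 171 ± 36.9 CPM in day 5 cells, against 53.3 ± 23.9 CPM in iHSC (log2 change 1.68 ± 0.27, adjusted p = 0.000112), Hells, a remodeller needed for DNA methylation, rose by 2.3, Uhrf1, which recruits the maintenance methyltransferase, by 2.26, and the HMG box gene Hmgb2 by 1.74. Kmt2a, the MLL methyltransferase gene, changed by -1.06 (adjusted p = 0.0634 without L66). Vim, the vimentin gene of the stromal list, averaged 498 ± 103 CPM in day 5 cells, against 227 ± 103 CPM in iHSC (log2 change 1.14 ± 0.26, adjusted p = 0.00499). Meg3, an imprinted noncoding RNA gene of stem cells, was the only one of 15 imprinted genes called and fell to 1.66 ± 2.99 CPM in day 5 cells, against 62.4 ± 81.4 CPM in iHSC (log2 change -5.13 ± 1.40, adjusted p = 0.0178).

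The largest changes were found in genes with few counts in one group. The neutrophil chemoattractant gene Cxcl1 had 0 counts in iHSC and was at least 179-fold higher on day 5 against a floor of 3 counts over the group. It was at 18.2, 8.55 and 28.6 CPM in spleen libraries L68, L69 and L70 and 0 to 2.05 CPM in the other 4. Egr4, an early growth response gene, was likewise at least 55.8-fold higher, the formyl peptide receptor gene Fpr1 at least 23.4-fold, and the butyrophilin-like gene Btnl9 at least 35.5-fold. Fpr1 lost its call in 15 alternatives, among them the fit without L66 (adjusted p = 0.0590). Btnl9 lost its call in 4 alternatives, and Egr4 and Cxcl1 in 1 each. None of the 10 largest rises passed the filter with both groups fitted alone. They were tested only where other groups shared the fit. Egr4 was also not tested in either organ split and had no adjusted p in DESeq2. Cxcl1 was not tested in the marrow-containing libraries. Rnase12 was the only one of the 10 largest rises in which every day 5 library lay above every iHSC library, at 0.666 to 67.5 CPM (median 2.21) in day 5 libraries, against 0 to 0.243 CPM (median 0) in iHSC libraries. The antisense gene Nespas, of the Gnas cluster, overlaps other transcripts, and reads of its partner cannot be told apart without strand. Of the largest falls, Cacna1s, Shisa9, Dusp26, Bace2 and Mettl24 had 0 counts in day 5 cells. Among these, only Shisa9 passed the filter with both groups fitted alone. Shisa9 was at least 654-fold lower on day 5 and ranged from 0 to 61.6 CPM in iHSC libraries (median 11.2).

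Against multipotent progenitors of the steady state (iMPP, 508 cells in 17 libraries from 9 gates), day 5 cells differed in 40 of 11986 genes (0.334%), 19 higher (0.159%) and 21 lower (0.175%) on day 5. The gates were ST_HSC, LMPP, MPP1 to MPP4, Fraction II, HPC2 and HPC3. Both organs were named for 5 of the iMPP libraries and bone marrow alone for the others, so organ and transplantation could not be fully told apart here either. The same day 5 libraries enter both comparisons, and both fits filter genes separately. G2/M genes had a median log2 change of -0.69 against iMPP, replication genes 0.33, HSC identity genes -0.06, immediate early genes 0.63, interferon response genes 0.86 and primary granule genes -1.81. Genes called against iMPP included Id1 with a change of 3.99 (adjusted p = 0.0197), Hspa1a with 4.6, Ly6a with 1.94, Vim with 0.97, Ncl with 0.74 and Hsp90ab1 with 0.57, all higher, and Pnp with -1.26 and Rabac1 with -1.02, both lower. These genes came from the naming rule, which drew mostly on genes called against iHSC. Their calls in both comparisons are therefore no separate result. Ly6a, not called against iHSC, stood at 624 ± 476 CPM on day 5, against 162 ± 122 CPM in iMPP (adjusted p = 0.0335). The following were named after their values were seen. Gem, a Ras-related GTPase gene, averaged 123 ± 67.1 CPM on day 5, against 9.03 ± 10.5 CPM in iMPP (log2 change 3.76, adjusted p = 0.00145) and was also called against iHSC. Ccnd1, the cyclin D1 gene, averaged 76.4 ± 20.8 CPM on day 5, against 18.5 ± 10.7 CPM in iMPP (log2 change 2.05, adjusted p = 0.0271). The interferon-induced genes Iigp1 and Cxcl10 changed by 2.85 and 5.57, and Erdr1, lower, by -3.07 (adjusted p = 4.97e-06). Against iHSC, Ccnd1, Iigp1 and Cxcl10 were not called, and Erdr1 was called lower. The count against iMPP was 660 with no filter on low counts, 61 without iMPP library L74, and 8 against the 5 iMPP libraries of both organs (0 higher and 8 lower). Every higher gene named above thus lost its call in that last fit, which also had fewer steady state libraries. The higher genes numbered 12 without L70 and the lower genes 13 without L68, 32 without iMPP library L37 or L38 and 33 without L74.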

How the data were processed

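Per the labels' protocols, single cells were sorted and their RNA was amplified with a modified form of Smart-seq2. The deposited table gave whole-number counts per gene and cell, which the authors had made with TopHat and HTSeq on mm10 (GRCm38), per the submitters' processing notes; versions and strand setting were not given in the sources used here. It held 23154 genes and 2879 cells, of which the 578 without annotation were left out, and 0 mitochondrial genes. Doublets were not called. Animals were not given.

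Counts were summed per group and library with at least 5 cells, to at least 517741 counts per sum. Day 1, 3, 5, 7 and iHSC sums (35) were fitted together, and day 5, iHSC and iMPP in a second fit, with edgeR 4.0.16 (filterByExpr, TMM, quasi-likelihood F test, two-sided, Benjamini-Hochberg adjustment) in R 4.3.3. Libraries L49 and L55 held cells of more than 1 group, and limma voom 3.58.1 took the library as a block. DESeq2 1.42.0 was another alternative. Summed levels of marker lists were unscaled CPM. Cells were thinned to 20000 counts for genes per cell and shares of cells, and library medians were compared by an exact permutation test over all regroupings (numpy 2.4.6). Floors of 3 counts cover counting error alone. The fit was also run on simulated counts with known changes. Their spread was the same for every gene and smaller than the common spread of the real fit. That run therefore does not show how the fit behaves on these libraries. Members and gene lists were chosen with earlier results of these data known. Named were the 10 largest changes each way (detected in over 50% of libraries of the higher group), the 10 smallest p each way, up to 4 called members each way and 2 uncalled members of each list, and Procr, Mecom, Hlf, Fgd5, Slamf1, Mki67 and Mpo; the first 2 sets took no predicted transcripts, no ribosomal protein genes and none of Xist, Tsix or the Y chromosome. Of these 197 genes the text names 116; a few results are not reported here. Alternatives were scaling, filter, tool, groups fitted, cell minimum, cell types, organ label and each library left out; 3 sets of libraries were left out after the data were seen.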

Additional observations from a re-analysis of the deposited data

Results flagged for a closer look

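Among 116 genes named in the text, 24 had a day 5 library whose gap to its nearest neighbour took an unusually large share of the range over the 7 libraries (Dixon's test at 95%). Chance flags about 1 in 20 groups of normally distributed values. The CPM tested here were not logged and were near 0 for some genes, so the rate by chance may be higher. L66, the library of 8 cells with macrophage and neutrophil markers, was the one that stood apart in 16 of them. Its values were the highest for Id1 (675 CPM, next 126), Vcam1 (316 CPM, next 12.4), C1qc (196 CPM, next 24.8), Cd5l (109 CPM, next 9.66), Cd14 (73.5 CPM, next 5.86), Mpo (2043 CPM, next 135) and Ccl5 (270.0 CPM, next 55.6). They were also the highest for Gp1ba (57.6 CPM), Nespas (94.3 CPM), Rnase12 (67.5 CPM), Mllt3 (161 CPM), Nasp (445 CPM), Shmt2 (360.3 CPM), Psmd2 (388 CPM) and Hsp90ab1 (3767 CPM), and the lowest for Tk1 (76.4 CPM, next 177). Ccl5 encodes a chemokine of T cells and macrophages. L86 was highest for Ly6a (1669 CPM, next 756), for the mast cell receptor gene Ms4a2 (27.1 CPM, next 0.993) and for the collagen gene Col1a1 (0.0819 CPM, 0 in the others). L69 was highest for the plasma cell genes Jchain (211 CPM, next 1.99) and Mzb1 (10.6 CPM, next 0.0504), L68 for Egr4 (12.8 CPM, next 3.15) and Tnfrsf17 (0.334 CPM, next 0.0674), and L71 for Meg3 (8.17 CPM, next 2.37).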

How the results depend on the processing

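Against iHSC the number of genes called (1011, with 572 higher and 439 lower) was within 1.5 times of that value with RLE factors, no filter on low counts, robust edgeR, at least 10 cells per sum, tHSC and tMPP cells alone, steady state libraries of both organs, no steady state sums from L49 and L55, and each set of libraries left out after the data were seen. It was 1564 in DESeq2 (1022 lower), 2200 in limma voom with the library as block (1538 higher, 662 lower), 2076 in limma on mean log values (1779 higher), 564 with both groups fitted alone (257 higher), 274 with the spleen libraries of day 5 (189 higher, 85 lower) and 206 with the marrow-containing ones (171 higher, 35 lower). Procr was called lower in voom and with both groups fitted alone. With 1 library left out at a time the number called against iHSC ranged from 700 to 1065, with 433 to 605 higher and 267 to 477 lower. Against iMPP the count (40, with 19 higher and 21 lower) was 660 with no filter (572 and 88), 114 in DESeq2 (33 and 81), 494 in voom (388 and 106), 239 on mean log values (200 and 39), 136 with both groups alone (57 and 79), 20 in spleen libraries (4 lower), 11 in marrow-containing ones (10 and 1), and 8 with steady state libraries of both organs (0 and 8). It was 61 without the sums from L49 and L55 (35 lower), 97 without the iHSC sums of L54, L55, L74 and L76 (38 and 59), which shared the spread of that fit, 63 without L86, L1, L14 and L15 (38 lower), and had 34 lower genes without L66 and the iHSC sums of L54, L55, L74 and L76. Leaving out 1 library gave 27 to 61, with 12 to 28 higher and 13 to 33 lower. The difference in genes per cell was past the test in every alternative, from 1072 to 1820 genes, and from 1088 to 1141 with 1 day 5 library left out. The organ splits held fewer day 5 libraries and differed in organ label as well, and these cannot be told apart in their lower counts. The cause of the other differences was not tested. Of the 116 named genes, 55 calls were lost in the marrow-containing and 41 in the spleen libraries, 23 on mean log values, 20 without L66 and the iHSC sums of L54, L55, L74 and L76, and 14 or fewer under each other alternative that kept all day 5 libraries. With both groups fitted alone only 100 of the 116 passed the filter, and a gene not tested was not counted as lost. Log2 changes turned direction for 9 genes. In voom they were -0.79 for Vcam1, -1.36 for Cd5l, -0.33 for Ms4a2, 0.13 for Ccl5, 0.40 for Slamf1 and -1.03 for Mpo; with at least 10 cells -0.35 for Vcam1, 2.62 for Ccl5, -1.61 for Mpo, 0.084 for Ly6a and -0.069 for Cox4i1. In spleen libraries Ms4a2 was at -1.37 and Cox4i1 at -0.067, and in marrow-containing ones Mpo at -0.42 and Ly6a at 0.19. Steady state libraries of both organs gave 0.92 for Col1a1 and 0.40 for Slamf1. Without the iHSC sums of L54, L55, L74 and L76 the values were 0.91 for Col1a1, 3.998 for Ccl5, 0.54 for Ly6a and -0.15 for Cox4i1, and without L66 as well 0.94, 2.27, 0.48 and -0.22 for these and -0.95 for Mpo. Without L86, L1, L14 and L15 Ms4a2 was at -0.52 and Slamf1 at 0.23. DESeq2 gave 4.59 for Ccl5 and -0.12 for Cox4i1, mean log values 0.13 for Ccl5, RLE factors -0.12, both groups alone -0.033 and no sums from L49 and L55 -0.070 for Cox4i1. With 1 library left out Vcam1 ranged from -0.53 to 4.13, Ms4a2 from -0.066 to 6.37, Ccl5 from -2.37 to 4.45, Col1a1 from -6.05 to 0.85, Mpo from -1.41 to 2.51, Ly6a from -0.69 to 0.024 and Cox4i1 from -0.050 to 0.082. No paired analysis was possible because the labels give no number that ties day 5 libraries to iHSC libraries. The smallest sums held 5 cells (L55), 6 (L54) and 8 (L66), and whether the counts are reads or molecules was not given, so that they may not be independent molecules.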
